A study of Mus musculus with 12 samples.

Results

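Expression of 10 immediate-early transcription factor genes was examined in immortalized murine brown adipocytes. They were the nuclear receptor genes Nr4a1, Nr4a2 and Nr4a3, the AP-1 genes Fos, Fosb, Fosl2, Jun and Junb, the zinc finger gene Egr1 and the cAMP response element modulator Crem. Members were taken by gene symbol, and all 10 were found among the 48321 genes listed. A normalized read count of at least 10 in at least 3 of the 12 libraries was reached by 8 of them, and these entered the tests. Nr4a3 and Fosb did not reach it and are given by their reads.

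The cells were brown preadipocytes of a wild type newborn C57BL/6J mouse, immortalized with SV40 large T antigen. They had been transduced either with the empty pLEX lentivirus (vector) or with pLEX carrying truncated Sema4B (tSema4B), a soluble mimetic of the form released by ADAM17, and selected with puromycin. Both lines were differentiated for 8 days, starting in medium that held the phosphodiesterase inhibitor IBMX, dexamethasone, rosiglitazone, insulin and triiodothyronine. They were then kept for 6 h in serum-free medium with albumin, either unstimulated or with 2 μM norepinephrine (NE), the endogenous agonist of the adrenergic receptors. This gave 4 groups of 3 libraries, vector unstimulated, vector NE, tSema4B unstimulated and tSema4B NE. One stable line stood for each construct. By the labels, libraries within a group are technical replicates, and the p-values measure only how far these libraries spread.

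In brown adipocytes NE raises cAMP, which activates protein kinase A, and this kinase phosphorylates CREB on cAMP response elements (CREs) of its target genes. Immediate-early genes are switched on by such signals without new protein synthesis, and their transcripts are usually short-lived. Nr4a1 to Nr4a3 encode orphan nuclear receptors that bind DNA without a classical ligand. FOS proteins pair with JUN proteins to form AP-1, and some products of Crem, the ICER repressors, bind CREs and dampen the same response. The libraries hold a single time of stimulation, and reads were counted per gene, so the isoforms of Crem were not told apart.

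The sequence before the start site is shown for the 3 Nr4a genes, Fos and Junb. Among the members whose promoter windows were used, these and Fosb, which was near the floor of detection, held a CRE core. Windows came from RefSeq (build GRCm38.p6), ran from 250 bases before to 50 bases after the annotated start, and were used for 8 of the 10 members. The core of the CRE, TGACG read on either strand, is in capitals. Bases that lie in an annotated exon are not shown.
Nr4a1 (chr15:101266596-101266845, plus strand): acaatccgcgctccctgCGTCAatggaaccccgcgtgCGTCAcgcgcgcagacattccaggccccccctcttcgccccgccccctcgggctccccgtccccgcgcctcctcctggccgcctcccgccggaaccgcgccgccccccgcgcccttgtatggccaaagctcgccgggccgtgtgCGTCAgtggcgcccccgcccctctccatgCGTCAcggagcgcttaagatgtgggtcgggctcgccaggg
Nr4a2 (chr2:57124004-57124253, minus strand): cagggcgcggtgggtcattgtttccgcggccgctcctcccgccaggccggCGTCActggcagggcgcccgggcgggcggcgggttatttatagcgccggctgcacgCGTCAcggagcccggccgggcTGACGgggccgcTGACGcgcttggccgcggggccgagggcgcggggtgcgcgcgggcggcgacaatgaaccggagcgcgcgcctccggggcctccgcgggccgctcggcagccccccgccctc
Nr4a3 (chr4:48045055-48045152, plus strand): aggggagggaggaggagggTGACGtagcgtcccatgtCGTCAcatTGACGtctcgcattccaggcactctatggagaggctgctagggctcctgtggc
Fos (chr12:85473640-85473889, plus strand): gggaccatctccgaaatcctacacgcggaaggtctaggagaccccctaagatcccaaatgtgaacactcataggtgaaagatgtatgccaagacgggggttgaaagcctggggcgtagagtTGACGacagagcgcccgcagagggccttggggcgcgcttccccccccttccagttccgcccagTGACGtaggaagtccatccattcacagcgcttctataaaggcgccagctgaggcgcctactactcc
Junb (chr8:84978749-84978998, minus strand): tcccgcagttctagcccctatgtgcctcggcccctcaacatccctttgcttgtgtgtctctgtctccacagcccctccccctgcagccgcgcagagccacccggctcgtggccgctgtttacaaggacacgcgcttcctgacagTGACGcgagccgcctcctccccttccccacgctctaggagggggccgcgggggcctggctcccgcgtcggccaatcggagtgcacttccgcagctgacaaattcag

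Each of Nr4a1, Nr4a2 and Nr4a3 held 4 CRE cores in its window, one of those of Nr4a3 lying beyond the bases printed. Of all 32851 windows of this length, 20.8% held at least 1 and 0.231% held at least 4. The window of Nr4a1 lies inside the gene as GENCODE M21 annotates it, before a RefSeq start at position 101266846 and outside annotated exons. In Nr4a1 the first bases of the CRE cores lay at -233, -213, -69 and -40 from the start, and all 4 were read on the other strand. Fos held 2, at -129 and -66, Junb held 1 at -106 and Fosb held 1 at -60. In the windows of Fosl2 and Jun these letters did not occur. The window of Fosl2 also lies inside its gene as GENCODE M21 annotates it, before a RefSeq start at position 32136472. Its first base is already in an annotated exon, so its letters are not those before the gene start of GENCODE. The full palindromic CRE, TGACGTCA, occurred in 0 of the 8 member windows and in 1.79% of all windows. The AP-1 site, TGACTCA or TGAGTCA on either strand, and AAAGGTCA, the element that NR4A receptors bind, also occurred in 0 of the 8, against 5.2% and 1.51% of all windows. The EGR site, GCGNGGGCG, occurred once each in the windows of Fosb, Fosl2, Nr4a1 and Nr4a2, and in 5.55% of all windows. TATAAA occurred in those of Fos, Junb and Nr4a2, and in 13.6% of all windows. The CArG box occurred in 0 of the 8, against 1.63%. All motifs were searched on both strands. These matches describe the letters of the windows only.

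The libraries held between 2000780 and 5409583 reads on genes, and the vector libraries were the deeper ones in each condition, with 4739777 reads or more in each vector NE library. Sema4b, the transduced gene, was higher in tSema4B than in vector cells both without stimulation (log2 fold change 1.27, SE 0.0884, adjusted p = 9.45e-10) and after NE (1.65, SE 0.0884, adjusted p = 1.21e-11), with no overlap between the groups. Its mean normalized counts were 116797 ± 6692 in vector unstimulated, 74266 ± 8219 in vector NE, 281514 ± 31108 in tSema4B unstimulated and 234276 ± 32374 in tSema4B NE (SD, n = 3), so the gene was at a high level in the empty-vector line too, where it fell by 0.66 on the log2 scale with NE (adjusted p = 2.86e-05). Reads of the construct and of the endogenous gene were not told apart. Of 10 markers of mature and brown adipocytes, 10 were lower in tSema4B in each condition, and the sum of their normalized counts ranged from 40603 to 46387 in vector unstimulated, from 54085 to 65688 in vector NE, from 6735 to 9539.6 in tSema4B unstimulated and from 10737 to 12158 in tSema4B NE. The sum of 10 fibroblast and preadipocyte markers was higher in tSema4B, at 17670 to 20165 against 9944 to 10367 without stimulation and 15315 to 16601 against 7914 to 8692 after NE. Of these, 7 rose without stimulation and 8 after NE. Of all genes, 5.64% rose and 7.39% fell in tSema4B without stimulation, and 9.79% rose and 11.2% fell after NE. Ucp1, which defines thermogenic adipocytes, had no read in tSema4B unstimulated. The macrophage markers Adgre1 and Ptprc had no read in any library and the summed level of all 5 stayed at 24.6 or less, and Csf1r, the 1 that was tested, entered only through the NE libraries, with 2 reads or fewer in each unstimulated library and a mean of 11.5 ± 2.50 in vector NE and 15.8 ± 5.42 in tSema4B NE (SD, n = 3). Of its exon bases 15.1% overlap Hmgxb3 on the opposite strand. The 4 endothelial markers summed to 21.9 or less. In bulk libraries fewer cells of a type and less RNA per cell cannot be told apart, and the part of cell composition in the differences between lines given below was not tested.

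In vector cells NE raised Nr4a1, Junb, Crem and Fosl2 and lowered Egr1, while Fos, the classical immediate-early gene, did not pass the test at this time. Of the 8 members tested, 3 were called upregulated (limma adjusted p over 11998 genes no higher than 0.05, with a change of 1 or more on the log2 scale), against 1.66% of all genes, and 0 were called downregulated, against 0.975%. By the adjusted p alone, the criterion by which genes are said to rise or fall here, 4 members rose and 1 fell, against 6.82% and 4.78% of all genes. Their median log2 fold change was 0.91, beside -0.02 for all genes. In tSema4B cells 2 members, Junb and Crem, were called upregulated (1.31% of all genes) and 0 downregulated (0.758%). By the adjusted p alone, 3 rose and 1 fell, against 3.68% and 2.58%, and the median was 0.58 beside 0.00 for all genes. The members were chosen with earlier results of these data known, so these shares and medians are a description only.

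**Figure D1:**
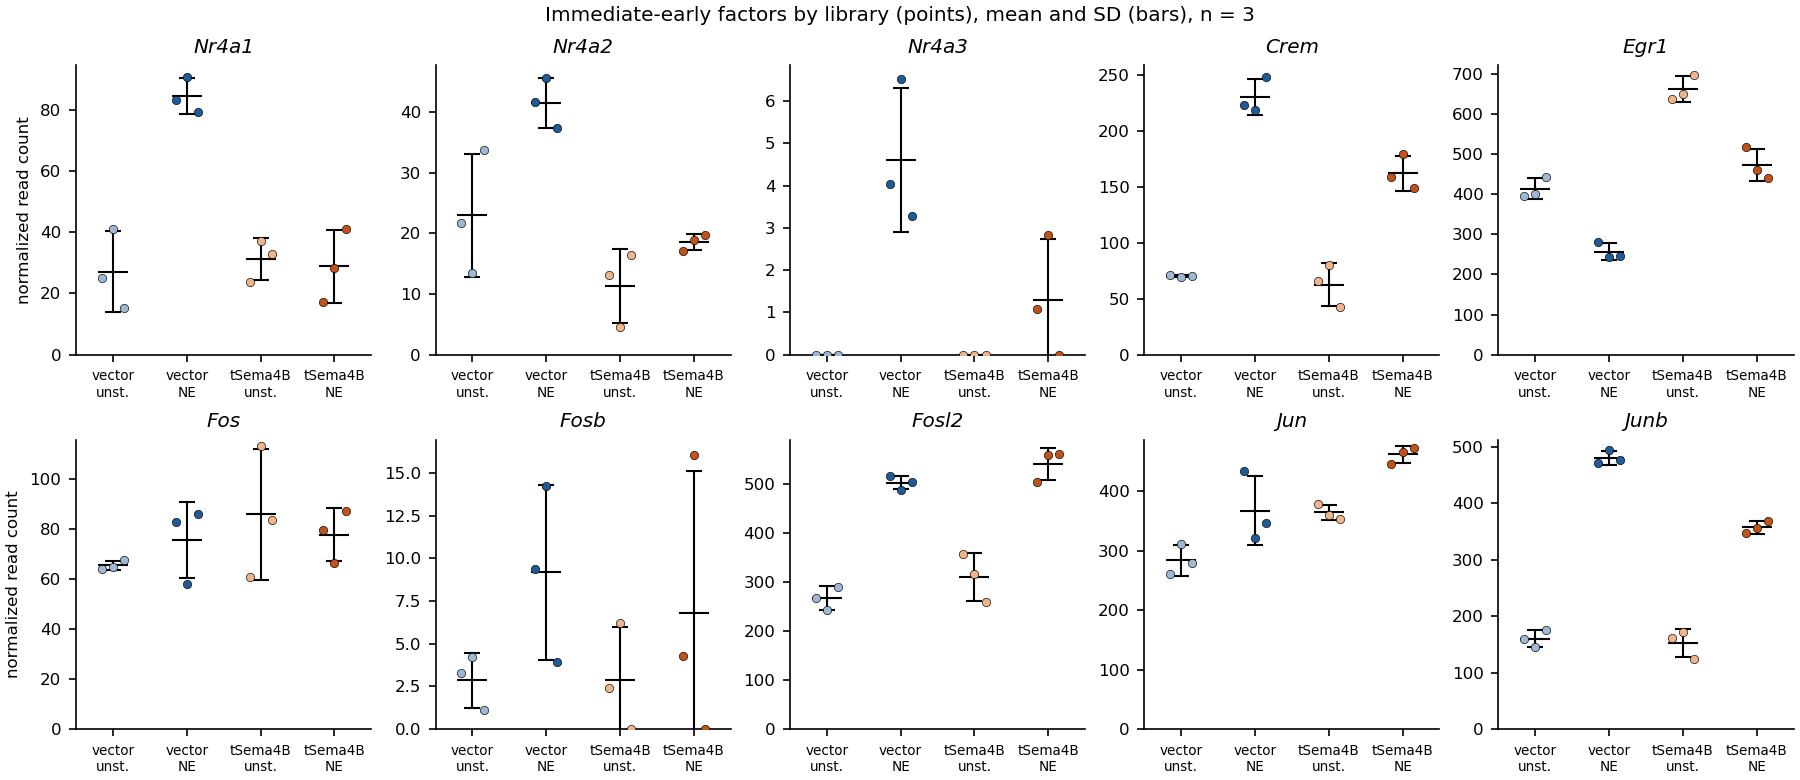
Normalized read counts of the 10 genes in each library (points; y axis starts at 0), with mean and SD of the 3 libraries of a group (bars that would pass below 0 end at the axis). Nr4a1 stood at 79.2 to 90.7 in vector NE and between 15.2 and 41.2 in every other library, while Junb, Crem and Fosl2 were higher with NE in both lines and Egr1 was lower.

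Nr4a1 (ENSMUSG00000023034.7) lies on chromosome 15 from 101254269 to 101274795 and encodes NUR77. Its normalized counts were 25.0, 41.2 and 15.2 in vector unstimulated and 83.3, 90.7 and 79.2 in vector NE. In tSema4B they were 23.8, 37.1 and 32.9 without stimulation and 17.2, 28.4 and 41.0 after NE. The 3 vector NE libraries stood above the other 9, whose groups overlapped. In vector cells the log2 fold change of NE was 1.71 (SE 0.364, adjusted p = 0.00338), a fold of 3.27. In tSema4B cells it was -0.17 (SE 0.364, 95% confidence interval -0.93 to 0.58, adjusted p = 0.850). These values rest on 121 to 153 reads per vector NE library and on 14 to 49 reads in each other library.

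The difference between these 2 responses of Nr4a1 was tested as the interaction of tSema4B and NE. Its estimate was -1.88 on the log2 scale (95% confidence interval -2.95 to -0.81, unadjusted p = 0.00142), and it did not pass after adjustment over all genes (limma adjusted p = 0.181, and between 0.122 and 0.386 over 21 alternatives). For the other 7 members tested the intervals of the interaction included 0. That of Junb ran from -0.75 to 0.05 and that of Fosl2 from -0.46 to 0.26. After adjustment 0 of the 8 members passed at 0.05, and so did 0.025% of all genes. Of the members, 1 had an unadjusted p under 0.05, and so did 1227 of all genes. Over all genes limma called 3, edgeR 4 and DESeq2 87, among which no member stood. DESeq2 gave no adjusted p for the interaction of Nr4a1, Nr4a2 and Fos.

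Nr4a2 (ENSMUSG00000026826.13, chromosome 2 from 57106830 to 57124003) encodes NURR1. Its normalized counts were 21.7, 13.5 and 33.8 in vector unstimulated, 41.7, 45.6 and 37.3 in vector NE, 13.1, 4.64 and 16.4 in tSema4B unstimulated and 17.2, 18.9 and 19.8 in tSema4B NE. In each line the NE libraries stood above the unstimulated ones. The log2 fold changes of NE, 0.91 in vector (SE 0.443, adjusted p = 0.213) and 0.81 in tSema4B (SE 0.443, adjusted p = 0.318), did not pass the test. The latter was 0.32 without tSema4B unstimulated replicate 2, which held 3 reads of Nr4a2, and the former was 0.59 without vector unstimulated replicate 2.

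Nr4a3 (ENSMUSG00000028341.9, chromosome 4 from 48045153 to 48086447), which encodes NOR1, had no read in the 6 unstimulated libraries, where 3 reads would be worth 2.52 to 4.64 normalized counts. It had 6, 11 and 5 reads in vector NE and 1, 3 and 0 reads in tSema4B NE. Its normalized counts in vector NE were 4.03, 6.52 and 3.27. The mean of 4.61 was at least 1.53-fold higher than the value of 3 reads per unstimulated vector library. In tSema4B NE the gene stayed at 3 reads or fewer. Such floors cover counting error only, because PCR copies of a molecule are counted as separate reads.

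Crem (ENSMUSG00000063889.16) lies on chromosome 18 from 3266048 to 3337748, and 472 of its exon bases overlap a predicted gene on the opposite strand. The normalized counts of Crem were 71.7, 69.8 and 70.8 in vector unstimulated and 224, 219 and 249 in vector NE. In tSema4B they were 65.6, 80.4 and 42.4 without stimulation and 159, 179.9 and 149 after NE. NE libraries did not overlap unstimulated ones in either line. The log2 fold change was 1.69 in vector (SE 0.203, adjusted p = 6.62e-06) and 1.40 in tSema4B (SE 0.203, adjusted p = 1.20e-04). After NE the tSema4B libraries of Crem were all below those of vector, with a log2 fold change of -0.50 (SE 0.203) that did not pass (adjusted p = 0.0829, and between 0.0207 and 0.236 over the alternatives).

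**Figure D2:**
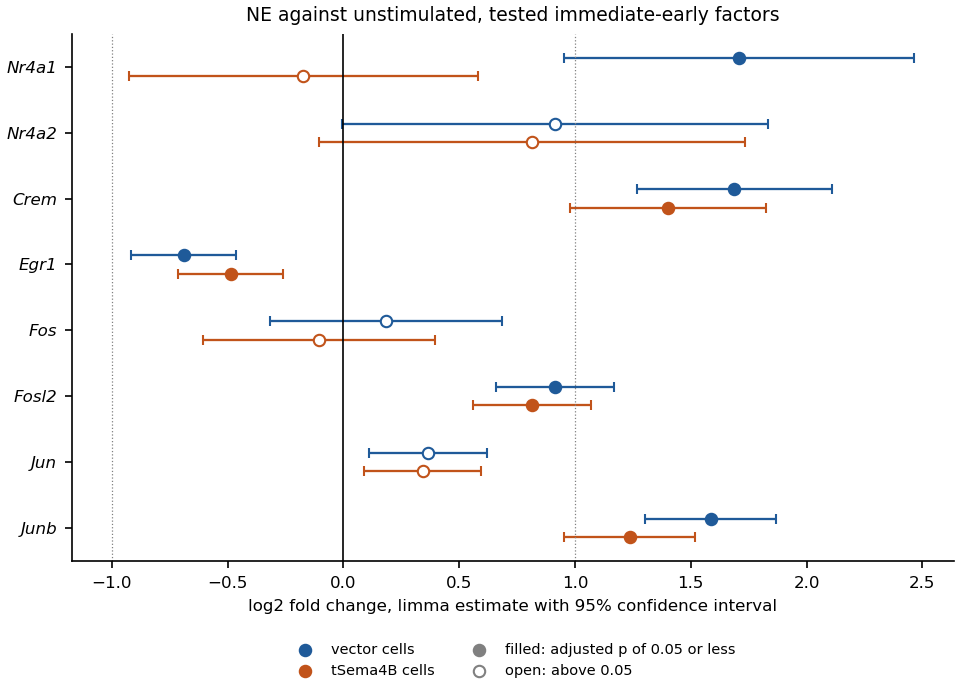
Log2 fold change of NE against unstimulated for the 8 tested genes (x axis), as limma estimates with 95% confidence intervals, in vector cells and in tSema4B cells. Points are filled where the adjusted p was 0.05 or less, and dotted lines mark a log2 fold change of 1 in size. Nr4a1 was at 1.71 in vector cells and -0.17 in tSema4B cells, whereas the 2 estimates of each of the other genes had overlapping intervals. Tested directly as the interaction, the difference of Nr4a1 between the lines did not pass (limma adjusted p = 0.181).

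Junb (ENSMUSG00000052837.6, chromosome 8 from 84974484 to 84978718) encodes a JUN family subunit of AP-1. Its normalized counts were 159.6, 145 and 175 in vector unstimulated and 471, 495 and 477 in vector NE. In tSema4B they were 161, 172 and 125 without stimulation and 347, 356 and 369 after NE. The groups with NE stood apart from the unstimulated ones in both lines, and the vector NE libraries also stood above those of tSema4B NE. NE raised Junb by a log2 fold change of 1.59 in vector (SE 0.136, adjusted p = 8.27e-08) and 1.24 in tSema4B (SE 0.136, adjusted p = 2.93e-06). Of its exon bases 173 overlap Prdx2 on the opposite strand, and the strand setting of the counting is not given in the sources used here.

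Jun (ENSMUSG00000052684.4, chromosome 4 from 95049034 to 95052222), the prototype subunit of AP-1, shares 232 exon bases with its antisense gene Junos. Its normalized counts were 261, 311 and 279 in vector unstimulated, 433, 322 and 347 in vector NE, 379, 360.4 and 353 in tSema4B unstimulated and 446, 467 and 473 in tSema4B NE. Neither the groups of one line nor the groups of one condition overlapped. None of the 4 estimates passed the test. They were 0.36 for NE in vector (adjusted p = 0.0557), 0.34 for NE in tSema4B (adjusted p = 0.103), 0.36 for tSema4B without stimulation (adjusted p = 0.0524) and 0.34 for tSema4B after NE (adjusted p = 0.0503). Of 23 alternatives each, 4, 0, 6 and 7 passed in this order. Without vector NE replicate 1 the estimate for NE in vector was 0.24 (adjusted p = 0.308).

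Fosl2 (ENSMUSG00000029135.10, chromosome 5 from 32135801 to 32157842) encodes FRA2, a FOS family protein. Libraries of Fosl2 had normalized counts of 268, 242 and 291 in vector unstimulated, 516, 488 and 504 in vector NE, 356, 316 and 259 in tSema4B unstimulated, and 504, 559.6 and 562 in tSema4B NE. NE libraries lay above unstimulated ones in both lines, and the 2 lines overlapped in each condition. The rise was 0.91 on the log2 scale in vector (SE 0.123, adjusted p = 2.86e-05) and 0.81 in tSema4B (SE 0.123, adjusted p = 1.92e-04), under the fold change threshold of 1 in both.

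Fos (ENSMUSG00000021250.13, chromosome 12 from 85473890 to 85477273) had normalized counts of 64.1, 64.7 and 67.5 in vector unstimulated, 82.6, 58.1 and 85.8 in vector NE, 60.8, 113 and 83.5 in tSema4B unstimulated and 79.4, 66.3 and 87.2 in tSema4B NE. All 4 groups overlapped. The log2 fold change of NE was 0.18 in vector (95% confidence interval -0.32 to 0.68, adjusted p = 0.718) and -0.11 in tSema4B (-0.61 to 0.40, adjusted p = 0.863). Fosb (ENSMUSG00000003545.3, chromosome 7 from 19302696 to 19310051), a close relative of Fos, was near the floor. It had 3, 5 and 1 reads in vector unstimulated, 14, 24 and 6 in vector NE, 2, 4 and 0 in tSema4B unstimulated and 4, 17 and 0 in tSema4B NE. The NE and unstimulated values of Fosb overlapped in both lines once reads were normalized.

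Egr1 (ENSMUSG00000038418.7, chromosome 18 from 34859823 to 34864984), which encodes a zinc finger factor induced by growth factors and serum, was lower with NE. Its normalized counts were 396, 401 and 443 in vector unstimulated and 281, 242 and 246 in vector NE. In tSema4B they were 636, 649.7 and 698 without stimulation and 518, 460.2 and 440.0 after NE. NE libraries lay below unstimulated ones in each line and tSema4B libraries above vector ones in each condition. Egr1 fell by 0.69 on the log2 scale with NE in vector (SE 0.110, adjusted p = 2.13e-04) and by 0.49 in tSema4B (SE 0.110, adjusted p = 0.00786).

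Comparison of the 2 lines showed a higher level of Egr1 in tSema4B, by a log2 fold change of 0.68 without stimulation (SE 0.110, adjusted p = 1.37e-04) and 0.88 after NE (SE 0.110, adjusted p = 4.72e-06). Both stayed between 0.64 and 0.98 over 23 alternatives each. Without stimulation Egr1 was the 1 member of 8 that rose and 0 fell, against 5.64% and 7.39% of all genes, and 0 members were called up or down with the fold change threshold, against 1.11% and 2.71%. After NE, 1 member rose (9.79% of all genes) and 2 fell (11.2%). With the fold change threshold 0 were called up (2.03%) and 1, Nr4a1, was called down (3.73%). Counts of 0 to 2 among 8 genes beside these shares are not read as a result about the members as a group.

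After NE, Nr4a1 was lower in tSema4B than in vector with an estimate of -1.60 on the log2 scale (SE 0.364, adjusted p = 0.00303), a mean of 28.8 ± 11.9 against 84.4 ± 5.81 (SD, n = 3). The same 3 vector NE libraries enter this value and the rise of Nr4a1 in vector cells. Without stimulation the difference between lines was 0.28 (95% confidence interval -0.47 to 1.04, adjusted p = 0.681). Junb fell by 0.43 on the log2 scale in tSema4B after NE (SE 0.136, adjusted p = 0.0284), with 357 ± 10.7 against 481 ± 12.5 (SD, n = 3). Its adjusted p was 0.0825 with libraries rescaled to the same total, and leaving out vector NE replicate 1, 2 or 3 gave 0.0667, 0.0950 and 0.0776, and tSema4B NE replicate 1 or 2 gave 0.0685 and 0.0655. Nr4a2 was at -1.01 without stimulation (adjusted p = 0.143, and -0.52 without tSema4B unstimulated replicate 2) and -1.11 after NE (adjusted p = 0.0790), and the latter was called by edgeR (adjusted p = 0.0371) and DESeq2 (adjusted p = 0.0314) on whole reads.

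**Figure D3:**
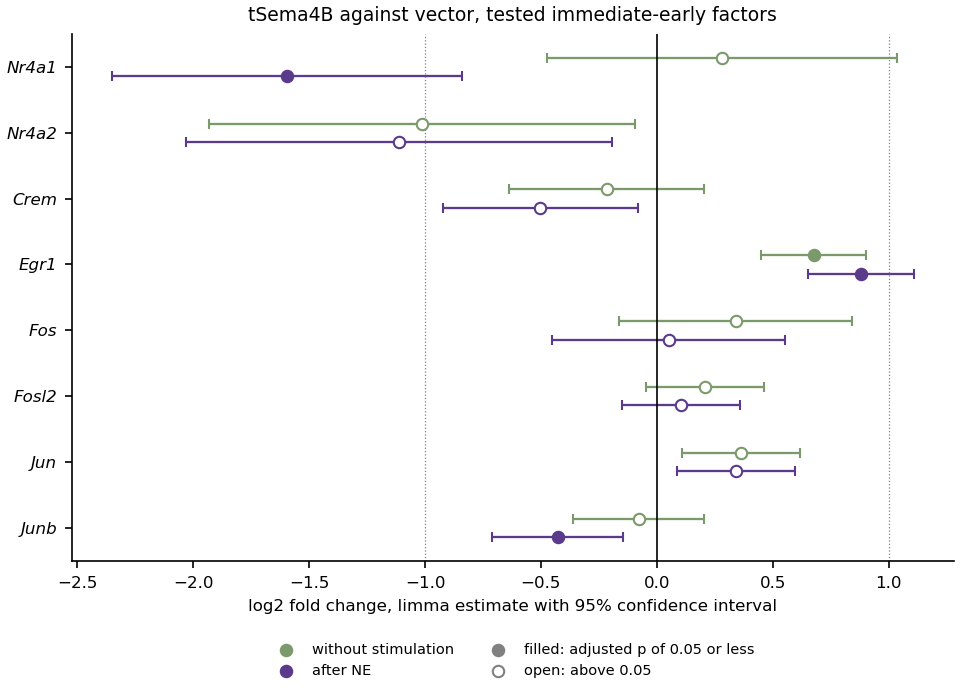
Log2 fold change of tSema4B against vector for the 8 tested genes (x axis), as limma estimates with 95% confidence intervals, without stimulation and after NE. Filled points had an adjusted p of 0.05 or less. Egr1 was above 0 in both conditions (0.68 and 0.88), and Nr4a1 was at 0.28 without stimulation and -1.60 after NE.

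Levels of different genes were compared per kilobase of annotated exon (GENCODE M21). In vector unstimulated the order of mean levels was Egr1 (92.2 normalized counts per kb), Jun (88.9), Junb (69.5), Fos (27.8), Fosl2 (27.6), Crem (12.0), Nr4a1 (7.73), Nr4a2 (5.66), Fosb (0.457) and Nr4a3 (0). Libraries of Egr1 and Jun, of Fos and Fosl2 and of Nr4a1 and Nr4a2 overlapped, and the other neighbours did not. After NE Junb led in both lines, at 209 ± 5.43 per kb in vector and 155 ± 4.64 in tSema4B (SD, n = 3). Egr1 was the third in each, at 57.2 and 105 per kb. In tSema4B NE the libraries of Junb and Jun (145) did not overlap. These orders rest on the exon lengths used. By mean normalized count without them, Fosl2 was the highest member after NE, at 503 in vector and 542 in tSema4B.

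Within each library the ratio of Junb to Jun per kb was 0.849, 0.644 and 0.872 in vector unstimulated, 1.51, 2.13 and 1.90 in vector NE, 0.588, 0.660 and 0.489 in tSema4B unstimulated and 1.08, 1.06 and 1.08 in tSema4B NE. It was above 1 in each of the 6 NE libraries and below 1 in each of the 6 unstimulated ones. In tSema4B NE a ratio above 1 rests on the exon lengths used, 2.301 kb for Junb and 3.189 kb for Jun. Before division by length Junb was lower there, at 347, 356 and 369 against 446, 467 and 473 for Jun. After NE the ratio was lower in every tSema4B library than in every vector library (two-sided exact permutation p = 0.1, which 3 libraries against 3 cannot go below). The ratio of Fosl2 to Fos per kb averaged 0.991 ± 0.0725 in vector unstimulated and 1.66 ± 0.332 in vector NE, and 0.952 ± 0.411 and 1.72 ± 0.287 in tSema4B (SD, n = 3). NE libraries lay above unstimulated ones in each line (two-sided exact permutation p = 0.1 in both).

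**Figure D4:**
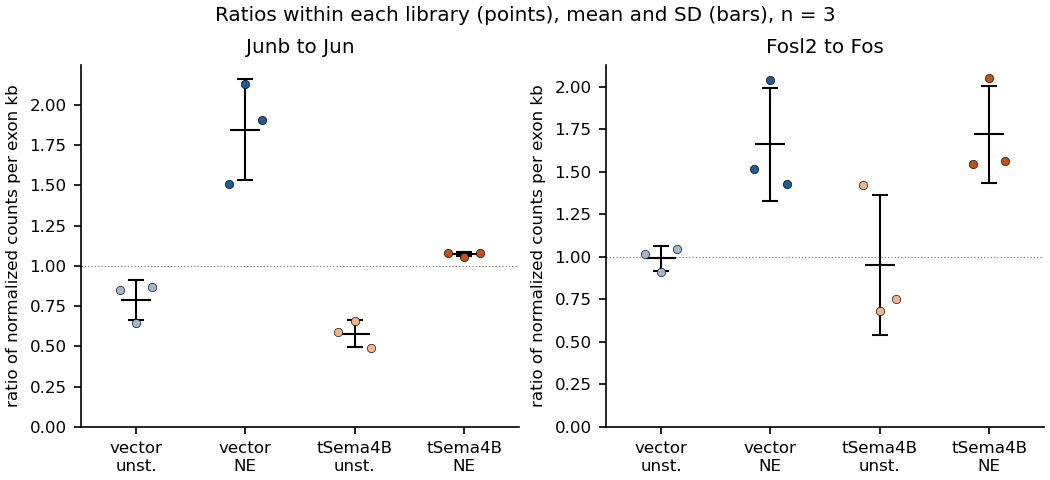
Ratios of normalized counts per exon kb within each library, Junb to Jun and Fosl2 to Fos (y axis from 0), with mean and SD of 3 libraries; the dotted line marks a ratio of 1. The ratio of Junb to Jun lay between 1.51 and 2.13 in vector NE and between 1.06 and 1.08 in tSema4B NE.

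Members moved alike to different degrees across the 12 libraries, which share the 4 groups. Pearson correlations of log2 values, given as a description, were highest between Junb and Crem (0.986) and between Junb and Fosl2 (0.927) and lowest between Nr4a2 and Egr1 (-0.800). Among all other tested genes, the pattern of Crem was most like those of Tnfrsf1a (0.963), Fam110c (0.957) and Pla2g12a (0.953). For Nr4a1 they were Wdr4 (0.910), Ddx27 (0.902) and Rras2 (0.897), and for Fos, with lower values, Klf7 (0.862), Cln8 (0.834) and Hsd17b7 (0.826).

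Other genes of these pathways were taken from 4 lists, which were chosen with earlier results of these data known. Of 13 other AP-1, ATF and MAF genes, 10 were tested. In vector cells 1 rose with NE, Fosl1, which encodes FRA1 (log2 fold change 1.05, adjusted p = 0.0103), and 1 fell, Maf (-0.94, adjusted p = 0.0165), beside 6.82% and 4.78% of all genes, and these counts are not read as a result about the list. In tSema4B cells Fosl1 was at 0.65 and Maf at -0.27, neither passed, and the differences between the lines did not pass either (interaction adjusted p = 0.771 and 0.542). Of the exon bases of Fosl1, 57.2% overlap Ccdc85b on the opposite strand. Of 13 further immediate-early genes, 11 were tested. NE raised 3 in vector and 2 in tSema4B, where 6.82% and 3.68% of all genes rose, and lowered 2 in each line, where 4.78% and 2.58% of all genes fell. Ier3, a stress-induced survival gene, rose by 1.21 and 0.81 on the log2 scale (adjusted p = 3.07e-05 and 0.00322) and Myc by 0.96 and 0.57 (adjusted p = 2.42e-04 and 0.0275). Egr2, a relative of Egr1, fell by 0.92 and 0.81 (adjusted p = 0.00270 and 0.0101), the same direction as Egr1. Of 10 genes for CREB, its coactivators and the salt-inducible kinases, 10 were tested and 0 passed in either line with NE, with medians of -0.08 and -0.28. Between the lines, members of these 3 lists moved in both directions, and are named after their values were seen. Without stimulation Nab2, Crtc1 and Sik1 were higher in tSema4B and Myc and Sik2 lower (5.64% and 7.39% of all genes rose and fell). After NE Maf and Nab2 were higher and Myc and Sik2 lower (9.79% and 11.2%).

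Of 12 cAMP-response genes of brown fat, 11 were tested, 6 rose with NE in vector, against 6.82% of all genes, and 3 in tSema4B, against 3.68%, and 0 fell. Their median log2 fold change was 0.77 in vector and 0.68 in tSema4B, beside -0.02 and 0.00 for all genes. The test was not passed by 5 in vector and 8 in tSema4B. Among these Ppargc1a, named after its values were seen, had the lowest estimates, -0.58 in vector and -0.63 in tSema4B. Dio2, the gene not tested, had no read in any library. Ucp1, the uncoupling protein of thermogenesis, went from 12.1 ± 2.98 to 276 ± 14.5 in vector and from no read to 62.9 ± 3.10 in tSema4B (SD, n = 3). It passed the filter on low values only through the NE libraries, so its place among the genes that rose is no independent support. Nfil3, a bZIP repressor, rose by 1.38 and 0.68 on the log2 scale (adjusted p = 4.11e-05 and 0.0345). Rgs2, a brake on G-protein signalling, rose by 0.71 and 0.69 (adjusted p = 1.66e-04 and 3.36e-04). The other 3 that rose in vector, named after their values were seen, were the phosphodiesterase genes Pde4d and Pde4b and the bZIP factor gene Cebpb. Their log2 fold changes were 1.81, 1.22 and 1.22 in vector and 0.90, 0.53 and 0.59 in tSema4B, where they did not pass (adjusted p = 0.0869, 0.151 and 0.263). Their interactions did not pass either (adjusted p = 0.482, 0.409 and 0.651). Of the exon bases of Cebpb, 20.7% overlap Tmem189 on the opposite strand. After NE, 5 of the 11 genes were lower in tSema4B than in vector, among them Ucp1, Nfil3 and Rgs2, and 0 were higher, where 11.2% and 9.79% of all genes fell and rose. Without stimulation 3 of the 11, Ucp1, Rgs2 and Per1, were already lower in tSema4B (7.39% of all genes), and Rgs2 was at -0.83 then and at -0.85 after NE.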

How the data were processed

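RNAseq data of 12 libraries were used. According to the methods and the processing notes, the authors made cDNA by SMART-Seq2 and Nextera XT libraries, screened reads against other genomes, ran STAR 2.7.9a on GRCm38.p4, counted reads with htseq-count and divided the counts by DESeq2 size factors. The signal the authors deposited is thus a normalized count per gene. Annotation and strand setting are not given in the sources used here. All non-zero values (100%) were whole multiples of 1 read within 0.01, so whole reads were recovered.

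Normalized counts were log2-transformed after adding 1, and genes with at least 10 in at least 3 libraries (11998) were fitted in one model of 4 groups with limma 3.58.1 in R 4.3.3 (trend, two-sided, Benjamini-Hochberg over all genes). A fold change is therefore on the log2(value + 1) scale, where a larger added number shrinks changes of low genes. For NE in vector, Nr4a1 was at 1.73 with 0.5 added and at 1.40 with 10 added. On whole reads edgeR gave 1.61 and DESeq2 1.62, so the main estimate of 1.71 was not below those of other tests. Calls needed an adjusted p up to 0.05 together with a log2 fold change of 1 in either direction; the interaction needed only the former. Alternatives included edgeR 4.0.16 and DESeq2 1.42.0 on whole reads. The steps were tested on simulated data.

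Members, lists and tests were chosen with earlier results of these data known. Genes named by rule were the members, Sema4b and up to 3 genes per list and NE comparison with the smallest adjusted p. The 3 genes most correlated with Nr4a1, Fos and Crem were also named by rule. Other genes, Per1 and Csf1r among them, were named after their values were seen. Gene positions and exon lengths are those of GENCODE M21 (GRCm38).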

Additional observations from a re-analysis of the deposited data

How the results depend on the processing

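The counts of members called with NE (3 in vector, 2 in tSema4B) did not move under another pseudocount, filter, scaling or test, with thinned reads (added after the data were seen), or with any library left out, except that without the filter Nr4a3 made it 4 in vector. With the adjusted p as the only criterion the counts were 5 and 4, and 1 without stimulation and 3 after NE for tSema4B against vector. The count of 1 for tSema4B after NE became 2, by Nr4a2, with edgeR, with DESeq2 and with only the 2 groups compared, and ranged from 1 to 2 when each library was left out (2 without tSema4B unstimulated replicate 2). Of 904 values of single members under alternatives, 881 kept direction and call, 4 gained a call and 19 changed sign, all in estimates that did not pass. Fos after NE in tSema4B against vector was -0.11 with thinned reads, and the interaction of Jun was 0.047 with libraries rescaled to the same total and 0.0356 with thinned reads. Over libraries left out in turn, NE in tSema4B gave -0.459 to 0.145 for Nr4a1 and -0.33 to 0.11 for Fos. The difference between lines without stimulation was -0.0596 to 0.63 for Nr4a1, -0.17 to 0.0602 for Junb and -0.42 to 0.0372 for Crem, and after NE -0.12 to 0.16 for Fos. The interaction was -0.59 to 0.22 for Nr4a2, -0.23 to 0.0045 for Fosl2 and -0.11 to 0.10 for Jun. The cause was not tested. Over all genes the interaction called 87 with DESeq2 against 3 with limma.

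The replicate numbers share no culture in the labels. Same-numbered libraries had correlations of deviations from -0.047 to 0.028 over 18 pairs, and 0 passed 0.1. With the number as a replicate block the counts of members called were 3, 2, 0, 1 and 0 over the 5 comparisons, as without it. Depth limits Nr4a3 and Fosb, which could be tested only without the filter, and the vector libraries were deeper than those of tSema4B. With reads thinned to the shallowest library Nr4a1 was at 1.63 (adjusted p = 0.00349) for NE in vector and -1.70 (adjusted p = 0.00123) for tSema4B after NE.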
